A study of Mus musculus with 18 samples.

Results

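The genes described here are 56 genes of DNA replication, measured by RNA-seq in MPC3, a mouse prostate cancer cell line. They were chosen by symbol for their known roles, with earlier results of these data known. They cover the licensing of replication origins, the replicative helicase, the polymerases, the sliding clamp, nucleotide supply and entry into S phase. Each of the 56 symbols matched 1 Ensembl identifier among the 47643 genes of the deposited table, and all 56 passed the filter on low counts, which left 14309 genes tested. The study asked how the transcriptome of these cells changes when Rnf185, the gene of a ubiquitin ligase, is knocked down. The 18 libraries fall into 3 groups of 6: controls whose titles carry plko, cells with the hairpin shRNF185.1, and cells with the hairpin shRNF185.3, where a hairpin is a short RNA that lowers the messenger RNA it matches. All 3 groups are the same line, and no parental cells and no other line were analysed here. The labels number the libraries of each group 1 to 6 and place numbers 1 and 2 in batch 1, 3 and 4 in batch 2, and 5 and 6 in batch 3. Nothing in the labels says that the numbers are separate cultures, so p-values measure the spread between these libraries, which may be technical. The counts tested had been batch-adjusted before deposit, so this spread is what that adjustment left.

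Before a cell copies its DNA, the origin recognition complex, with Cdc6 and Cdt1, loads the ring-shaped MCM helicase onto each origin, and geminin (Gmnn) blocks Cdt1 so that loading happens once per cycle. At the start of S phase, Cdc45 and the GINS complex join the MCM ring to form the active helicase, primase and polymerase alpha begin each strand, and the clamp PCNA, placed by the RFC loader, holds the elongating polymerases on DNA. Most of these genes are transcribed in late G1 and S phase under E2F factors, and cyclin E with its kinase triggers the transition, so their combined RNA level in a culture also follows how many cells are in that part of the cycle. In bulk RNA a smaller share of cells in S phase and less RNA in each such cell cannot be told apart.

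Rnf185 fell from 35.9 ± 1.96 CPM (mean ± SD, n = 6; scaled counts, as the authors deposited them) in control to 5.81 ± 0.582 with shRNF185.1 and 5.80 ± 0.547 with shRNF185.3. The fitted log2 difference was -2.63 for either hairpin (adjusted p = 9.3e-15 and 1.91e-14). Libraries held 22027385 to 43379645 counts, and a floor of 3 counts corresponds to 0.0692 to 0.136 CPM, which covers counting error only. Of the markers used for checking the cell type, Krt8 (1185 CPM in control), Krt18 (350.1), Vim (3166) and Hoxb13 (55.98) were present, while Krt5 (0.00384) lay below the floor and Epcam (0.124) lay at it. Ptprc (0.0337) and Cdh5 (0.0167), which mark leukocytes and endothelium, were below it too. Of the other markers checked for these 2 classes, Lyz2 (0.0213) was below the floor. The leukocyte marker Cd68 (3.62) was well above the floor, and the endothelial marker Pecam1 (0.176) was slightly above it. Mean levels of several epithelial and mesenchymal markers stood apart between the groups; these marker CPM are counts over the library total and were not tested. Krt18 went from 350.1 CPM in control to 178.6 with shRNF185.1 and 149.7 with shRNF185.3, Cdh1 (E-cadherin) from 34.78 to 9.396 and 8.046, and Krt8 from 1185 to 835.4 and 838.3. The collagens Col1a1 (79.09, 195.8 and 365.3) and Col3a1 (539.6, 1178 and 1655) were higher in the hairpin groups, Vim was at 3166, 3366 and 3367, and Fn1 at 2515, 2538 and 3380. The part of these shifts in the replication gene results was not tested.

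The proximal promoters of these genes were searched for the letters that E2F factors are known to bind. RefSeq promoter windows on GRCm38.p6, running from 250 bases before to 50 bases after a gene start, matched 46 of the 56 genes. An exact match to TTTGGCGC, TTTCCCGC, TTTCGCGC or TTTGCCGC on either strand stood in 18 of these 46 (39.1%), against 2.6% of 27035 genes with a window. In the 250 bases before the start alone the shares were 21.7% and 2.16%. The letters CCAAT, bound by the factor NF-Y, stood in 27 of 46 (58.7%) against 41% of all, and TTTGAA or TTCGAA, an element of genes that peak in mitosis, in 8 of 46 (17.4%) against 21.7% of all. A match is a description of letters and not of binding, and overlapping matches were counted separately. The 250 bases before the start are shown for 2 helicase subunits with E2F letters in this stretch and for E2f2. The RNA of E2f2 changed with 1 hairpin, and the first of its several listed windows has its E2F letters only after the start. The stretches shown lie at chr1:128359706-128359955 on the minus strand (Mcm6), chr8:75109259-75109508 on the plus strand (Mcm5) and chr4:136172024-136172273 on the plus strand (E2f2). Capitals mark the E2F and NF-Y letters on either strand.
Mcm6: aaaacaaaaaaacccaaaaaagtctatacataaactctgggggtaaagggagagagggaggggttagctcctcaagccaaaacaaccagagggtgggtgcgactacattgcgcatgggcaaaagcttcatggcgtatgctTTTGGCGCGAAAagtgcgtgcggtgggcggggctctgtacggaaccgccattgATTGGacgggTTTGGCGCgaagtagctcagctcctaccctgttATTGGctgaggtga
Mcm5: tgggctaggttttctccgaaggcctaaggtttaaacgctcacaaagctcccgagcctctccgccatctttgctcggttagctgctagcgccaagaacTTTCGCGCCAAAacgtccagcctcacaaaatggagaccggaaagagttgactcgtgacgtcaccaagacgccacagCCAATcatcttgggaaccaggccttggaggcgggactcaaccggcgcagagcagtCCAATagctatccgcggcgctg
E2f2: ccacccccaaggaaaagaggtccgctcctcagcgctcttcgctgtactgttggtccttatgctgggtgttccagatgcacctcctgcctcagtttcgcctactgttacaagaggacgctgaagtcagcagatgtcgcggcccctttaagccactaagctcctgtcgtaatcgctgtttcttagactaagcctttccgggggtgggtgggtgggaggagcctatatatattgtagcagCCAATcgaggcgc
In Mcm6 the E2F letters begin 110, 106 and 47 bases before the start and the NF-Y letters 57 and 14 bases before it. In Mcm5 the E2F letters begin 153 and 149 bases before the start and the NF-Y letters 77 and 22 bases before it. In both genes a pair of E2F matches on opposite strands overlaps, so that each forms a single run of capitals. In E2f2 the only capitals are an NF-Y match 13 bases before the start. The E2F match of this window begins 39 bases after the start, beyond the bases shown, so E2f2 is among the 18 genes with a match.

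All 56 genes were above the floor in control cells, with the clamp and the MCM helicase at the top and origin recognition near the bottom. The clamp gene Pcna was highest at 187 CPM per kb of exonic length, followed by the helicase subunit Mcm5 at 127. Next came Mcm7 (93.5), Rrm2 (92.9), Mcm6 (86.1), Mcm3 (82.3) and Mcm4 (66.9), Rrm2 being the small subunit of ribonucleotide reductase. Mcm2, the remaining subunit of the same ring, ranked 13 at 43.1. At the other end stood Orc1 (7.20), Orc3 (6.11), Orc4 (5.27), the transcription factor E2f2 (4.77), Orc5 (4.18) and the nuclease Dna2 (3.58). The origin recognition subunits thus held 4 of the 6 lowest places, while Orc6 (32.1) and Orc2 (24.3) ranked 18 and 23. Neighbours in this order often overlapped between libraries, as the plot of control levels shows.

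**Figure D1:**
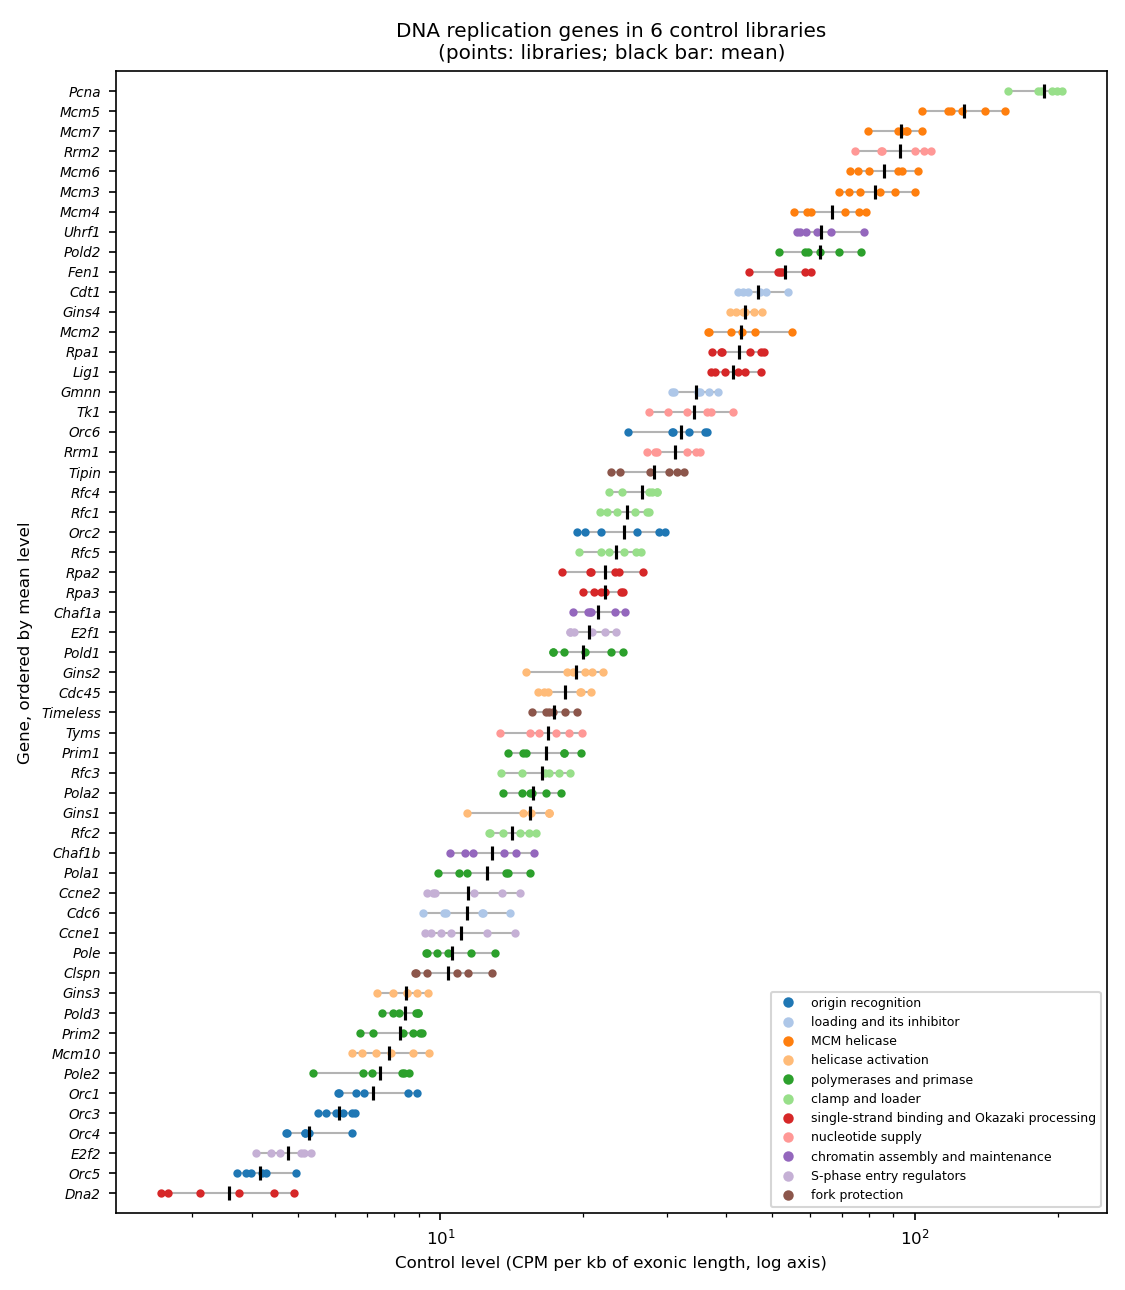
Level of each of the 56 genes in the 6 control libraries, in CPM per kb of exonic length on a log axis, ordered by mean (black bar) and coloured by role. Pcna (187) and Mcm5 (127) lead and Dna2 (3.58) is last. The points of neighbouring genes overlap along most of the order.

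With shRNF185.1, 5 of the 56 genes were called lower and none higher (edgeR's quasi-likelihood test, adjusted p under 0.05 over all genes tested), which is 8.93% of them, against 28.9% of all genes tested. Called lower were Ccne2, Gmnn, Orc2, Orc5 and Rfc4. With shRNF185.3, 9 were called lower and none higher, 16.1% against 27.3% of all genes. Called lower were Cdc45, E2f2, Ccne2, Gmnn, Orc2, Pola2, Pcna, Rfc4 and Rpa3. Taking the lower direction alone, the background was 14.3% of all genes with shRNF185.1 and 13.1% with shRNF185.3, and for the higher direction it was 14.6% and 14.2%. Both comparisons use the same 6 control libraries. The genes called in each were Ccne2, Gmnn, Orc2 and Rfc4.

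The estimates were mostly small and mostly below 0. The median log2 fold change of the 56 was -0.07 with shRNF185.1, with 42 estimates below 0, and -0.14 with shRNF185.3, with 50 below 0. The medians over all genes tested were -0.02 and -0.02. At an unadjusted p under 0.05 the counts were 10 with shRNF185.1 (17.9%, against 39.3% of all genes) and 19 with shRNF185.3 (33.9%, against 38.6%). Of the 51 genes not called with shRNF185.1, the 95% intervals reached from -0.54 (Orc1) to 0.46 (Ccne1), and of the 47 not called with shRNF185.3 from -0.71 (Dna2) to 0.31 (Gins2). In 50 and 44 of those genes the whole interval lay within 0.5 of 0 on the log2 scale, which bounds their change without showing that there was none.

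The counts moved with the libraries used. With shRNF185.1 the genes called lower numbered 2 without batch 1 (3.57%, against 15.5% of all genes called in either direction), 2 without batch 3 (3.57%, against 20.3%) and 13 without batch 2 (23.2%, against 35.7%). For shRNF185.3 these counts were 3 (5.36%, against 14.9%), 2 (3.57%, against 17.4%) and 13 (23.2%, against 26.8%). Without control replicate 3 the count for shRNF185.3 was 15 (26.8%, against 27.1%). All these shares of all genes count both directions. Of the calls behind them, 50.2% to 53.5% were higher with shRNF185.1 and 51.9% to 59.7% with shRNF185.3. No gene of the 56 was called higher against control under any setting tried.

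**Figure D2:**
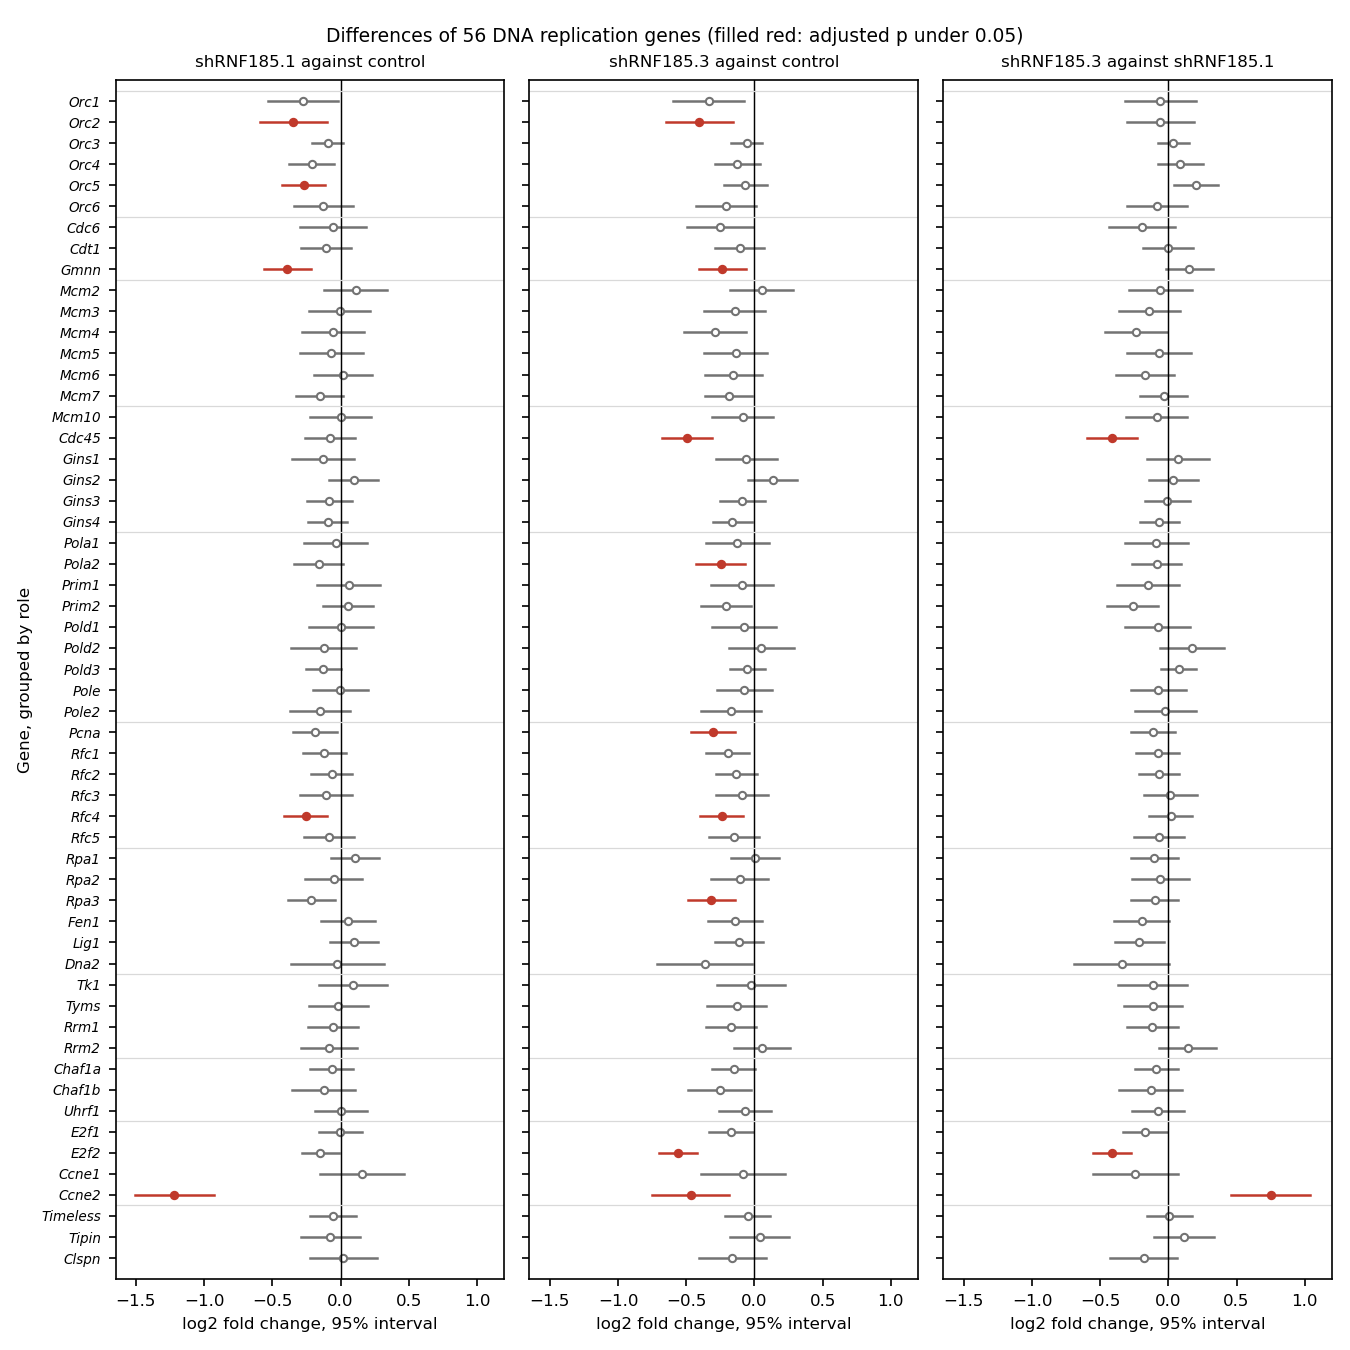
Log2 fold change with its 95% interval for each of the 56 genes, grouped by role, in the 3 comparisons; red filled points passed the test. Most intervals include or lie close to 0, and Ccne2 with shRNF185.1 (-1.22) stands farthest out.

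Among the S-phase entry regulators, Ccne2 changed most of all 56 genes with shRNF185.1 and E2f2 changed most with shRNF185.3. Ccne2 encodes cyclin E2, which activates the kinase CDK2 at the G1 to S transition. It ranged from 32.7 to 51.3 CPM in control (median 37.6), from 12.4 to 21.1 with shRNF185.1 (median 18.02) and from 21.2 to 34.2 with shRNF185.3 (median 29.1). Every shRNF185.1 library lay below every control library, an arrangement found in 5.82% of all genes tested (7.01% had every library above), while the shRNF185.3 libraries overlapped control. The log2 fold change was -1.22 with shRNF185.1 (SE 0.14, adjusted p = 2.81e-06), a level 0.430 of control, and -0.47 with shRNF185.3. The shRNF185.3 call was lost without batch 1 (-0.55, adjusted p = 0.0565), without batch 3 (-0.20, adjusted p = 0.228), and with the libraries of a group and batch summed (-0.45, adjusted p = 0.0604). Ccne2 overlaps Ints8 on the opposite strand, and 12.8% of the 75-base windows of its transcripts occur in another gene. Strand use in counting is not given in the sources used here. Ints8 went from 53.5 CPM in control to 50.5 and 45.1, a log2 fold change of -0.08 with shRNF185.1, not called, and of -0.24 with shRNF185.3 (adjusted p = 0.00971). Its part in the Ccne2 values was not tested.

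E2f2, an activating E2F transcription factor, ranged from 20.0 to 26.0 CPM in control (median 23.6), from 19.9 to 23.2 with shRNF185.1 (median 20.8) and from 14.8 to 17.3 with shRNF185.3 (median 15.5). All shRNF185.3 libraries lay below all libraries of both other groups. For libraries all below control, the background was 5.6% of genes, and for all above it was 7.66%. The log2 fold change against control was -0.56 with shRNF185.3 (SE 0.07, adjusted p = 4.33e-06) and -0.15 with shRNF185.1, which was not called. None of the windows of E2f2 was shared with another gene. E2f1 and Ccne1, the close relatives of these genes, were not called with either hairpin: E2f1 was at -0.00 with shRNF185.1 and -0.17 with shRNF185.3, and Ccne1 at 0.16 and -0.08.

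**Figure D3:**
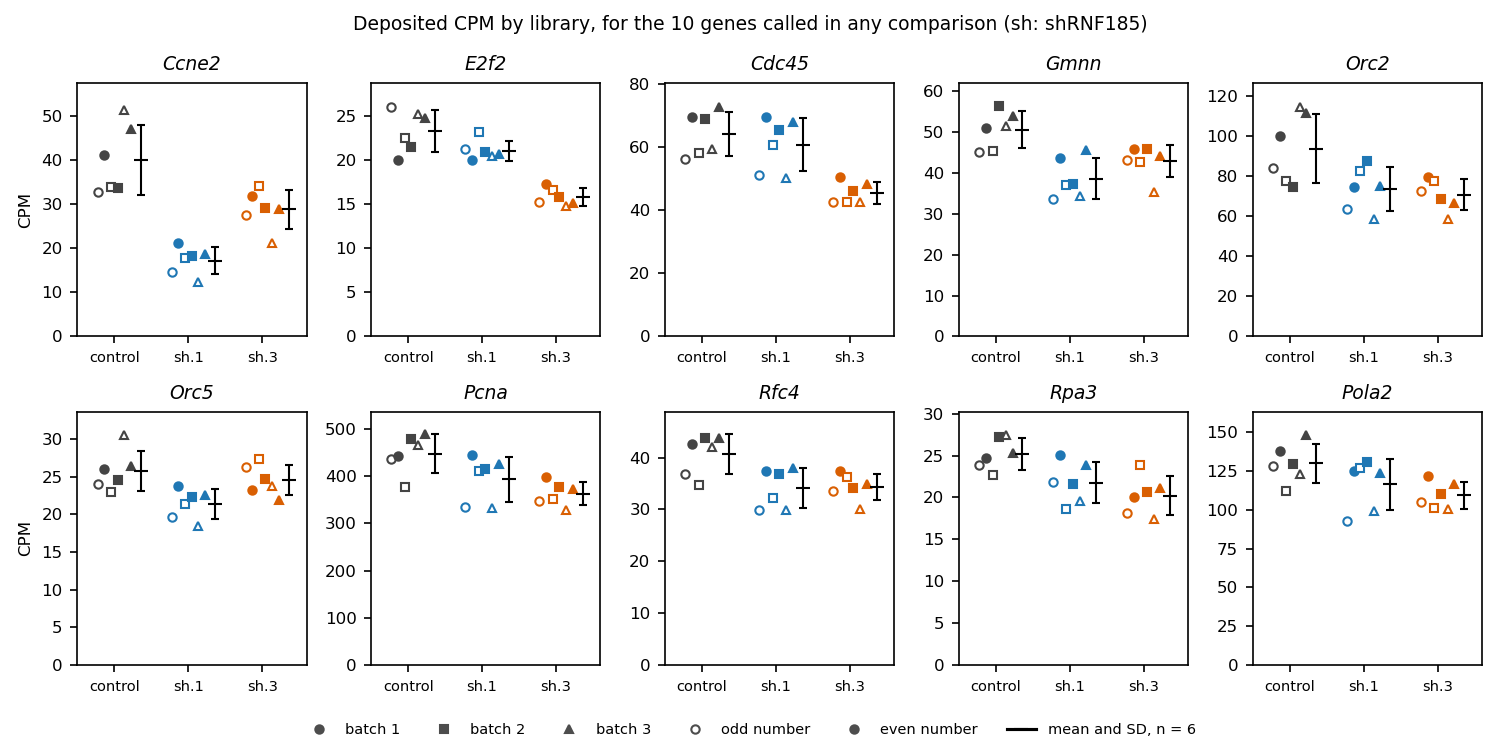
Deposited CPM of the 10 genes called in any comparison, by library, with mean and SD of 6; marker shape gives the batch and filling the even replicate numbers. Ccne2 with shRNF185.1 (12.4 to 21.1) and E2f2 (14.8 to 17.3) and Cdc45 (42.5 to 50.6) with shRNF185.3 lie below every control library, and the other genes overlap control.

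Of the 6 helicase activation genes, Cdc45 was called lower with shRNF185.3 and none was called with shRNF185.1. Cdc45, which locks onto the MCM ring to switch the helicase on, ranged from 56.2 to 72.7 CPM in control (median 64.0), from 50.1 to 69.4 with shRNF185.1 (median 63.0) and from 42.5 to 50.6 with shRNF185.3 (median 44.3). The shRNF185.3 libraries were all below control, while 4 of the shRNF185.1 libraries lay within the control range and 2 below it (50.1 and 51.0). The log2 fold change was -0.49 with shRNF185.3 (SE 0.09, adjusted p = 0.000333) and -0.08 with shRNF185.1. The 4 GINS genes, partners of Cdc45 in the active helicase, and Mcm10 lay between -0.16 (Gins4) and 0.13 (Gins2) with shRNF185.3 and between -0.13 (Gins1) and 0.10 (Gins2) with shRNF185.1. In Cdc45, 3.54% of windows also occur in other genes. In Gins2, 64.7% of windows also occur in Gse1, so its count is uncertain.

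None of the 6 MCM helicase genes, which held 5 of the 7 highest levels per length, was called in any of the 3 comparisons. Their log2 fold changes ran from -0.15 (Mcm7) to 0.11 (Mcm2) with shRNF185.1 and from -0.29 (Mcm4) to 0.05 (Mcm2) with shRNF185.3. Mcm4 with shRNF185.3 came close to the threshold (adjusted p = 0.0519) and was chosen after its value was seen.

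The origin recognition genes, which encode the subunits that mark origins, all had estimates below 0 with both hairpins, and 2 of 6 were called with shRNF185.1 and 1 with shRNF185.3. Orc2 ranged from 74.8 to 114 CPM in control (median 92.1), from 58.8 to 87.7 with shRNF185.1 (median 75.1) and from 58.8 to 79.8 with shRNF185.3 (median 70.6), so that the groups overlapped. It changed by -0.35 on the log2 scale with shRNF185.1 (SE 0.12, adjusted p = 0.031) and -0.40 with shRNF185.3 (SE 0.12, adjusted p = 0.014). For shRNF185.1 the within-batch differences were -0.41, 0.16 and -0.76, and for shRNF185.3 they were -0.26, -0.06 and -0.85. The shRNF185.1 call was lost in 12 of 34 alternatives, namely without control replicate 2, 5 or 6 (adjusted p = 0.0613, 0.0815 and 0.0794), without shRNF185.1 replicate 1 or 5 (0.0729 and 0.0775), without batch 1 (0.211) or batch 3 (0.466), with only the 2 groups compared (0.058), with a batch covariate (0.051), with the replicate number as a block (0.0609), with that block and a GC and length offset (0.0572), and with the libraries of a group and batch summed (0.162). The shRNF185.3 call was lost without batch 1 (adjusted p = 0.0627) or batch 3 (0.314) and with those libraries summed (0.109). Orc2 shares 25.1% of its windows with Nif3l1 on the opposite strand, which was not called (-0.16 and -0.10). Orc5 fell by 0.27 on the log2 scale with shRNF185.1, a call lost without batch 1 (adjusted p = 0.0599) or batch 3 (0.138), and was at -0.07 with shRNF185.3. Orc1, Orc3, Orc4 and Orc6 were not called and lay between -0.33 (Orc1 with shRNF185.3) and -0.06 (Orc3 with shRNF185.3). By the same test, Orc4 with shRNF185.1 (adjusted p = 0.0501) and Orc1 with shRNF185.3 (adjusted p = 0.0509) lay nearer the threshold than Mcm4.

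Gmnn, the brake on origin loading, was called lower with both hairpins, and the loading factors Cdt1 and Cdc6 were not called. Gmnn ranged from 45.1 to 56.3 CPM in control (median 51.3), from 33.7 to 45.5 with shRNF185.1 (median 37.2) and from 35.4 to 46.0 with shRNF185.3 (median 43.6). The highest hairpin libraries just reached the lowest control library. The log2 fold change was -0.39 with shRNF185.1 (SE 0.08, adjusted p = 0.00136) and -0.24 with shRNF185.3 (SE 0.08, adjusted p = 0.0389). The shRNF185.1 call was kept under all 34 alternatives and had the same sign in every batch (-0.32, -0.45 and -0.41). The shRNF185.3 call was lost in 14 of them: with a batch covariate (adjusted p = 0.063), without a filter (0.0589), with a minimum mean of 1 CPM (0.0518), and on the omission of any batch (adjusted p = 0.0688, 0.0949 and 0.259), of control replicate 2, 4, 5 or 6 (0.0622, 0.0812, 0.0633 and 0.0774) and of shRNF185.3 replicate 1, 3, 5 or 6 (0.0565, 0.0598, 0.0964 and 0.0556). Cdt1, the factor that geminin binds, was at -0.11 with each hairpin, and Cdc6 at -0.05 and -0.25.

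In the clamp and loader group, Rfc4 was called lower with both hairpins and Pcna with shRNF185.3. Rfc4, a subunit of the ring that opens the clamp, ranged from 34.7 to 43.8 CPM in control (median 42.4), from 29.9 to 38.1 with shRNF185.1 (median 34.6) and from 30.1 to 37.3 with shRNF185.3 (median 34.5). The lowest control libraries fell inside the hairpin ranges. Its log2 fold change was -0.26 with shRNF185.1 (SE 0.08, adjusted p = 0.0159) and -0.24 with shRNF185.3. The shRNF185.1 call was lost without batch 1 (adjusted p = 0.086) or batch 3 (0.115). The shRNF185.3 call was lost without batch 1 (adjusted p = 0.0736) or batch 3 (0.254), without control replicate 2, 4 or 6 (0.0504, 0.0508 and 0.0553) and without shRNF185.3 replicate 5 (0.0648). Pcna ranged from 377 to 489 CPM in control (median 454), from 334 to 444 with shRNF185.1 (median 413) and from 328 to 398 with shRNF185.3 (median 363). The shRNF185.3 libraries overlapped control only at its lowest library. Its log2 fold change was -0.30 with shRNF185.3 (SE 0.08, adjusted p = 0.00681), a call lost without batch 3 (-0.23, adjusted p = 0.107), and -0.19 with shRNF185.1. In Pcna 13.8% of windows are shared with the pseudogene Pcna-ps2. In Rfc4 7.45% of windows are shared with Eif4a2, which overlaps it on the opposite strand. The other RFC genes were not called and lay between -0.20 (Rfc1 with shRNF185.3) and -0.06 (Rfc2 with shRNF185.1).

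Of the 9 polymerase and primase genes, Pola2 alone was called, with shRNF185.3. Pola2 encodes the second subunit of polymerase alpha, which starts each new strand. It ranged from 112 to 149 CPM in control (median 129), from 92.7 to 131 with shRNF185.1 (median 124) and from 101 to 122 with shRNF185.3 (median 108), with overlap between all groups. Its log2 fold change with shRNF185.3 was -0.25 (SE 0.09, adjusted p = 0.0376). That call was lost in 13 of 34 alternatives: with a batch covariate (adjusted p = 0.0602), without a filter (0.0518), and on the omission of any batch (adjusted p = 0.106, 0.0606 and 0.191), of control replicate 1, 2, 4 or 6 (0.0534, 0.0746, 0.0512 and 0.0915) and of shRNF185.3 replicate 1, 3, 4 or 5 (0.0681, 0.0756, 0.0593 and 0.0831). The other 8 genes lay between -0.15 (Pole2) and 0.06 (Prim1) with shRNF185.1 and between -0.21 (Prim2) and 0.05 (Pold2) with shRNF185.3.

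Among the genes of single-strand binding and Okazaki fragment processing, Rpa3 was called lower with shRNF185.3. Rpa3, the smallest subunit of the complex that coats single-stranded DNA, ranged from 22.7 to 27.5 CPM in control (median 25.0), from 18.6 to 25.1 with shRNF185.1 (median 21.7) and from 17.4 to 23.9 with shRNF185.3 (median 20.4). The highest hairpin libraries reached into the control range. Its log2 fold change with shRNF185.3 was -0.32 (SE 0.08, adjusted p = 0.00721), and the call was lost without batch 1 (adjusted p = 0.0752) or batch 3 (0.113). With shRNF185.1 it was -0.21 and not called. Rpa1, Rpa2, Fen1, Lig1 and Dna2 lay between -0.05 (Rpa2) and 0.11 (Rpa1) with shRNF185.1 and between -0.37 (Dna2) and 0.00 (Rpa1) with shRNF185.3. Fen1 is uncertain, since 73.7% of its windows also occur in other genes. In Rpa3 this share is 7.34%.

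No gene was called in either comparison with control among nucleotide supply (Tk1, Tyms, Rrm1 and Rrm2, from -0.17 to 0.09), chromatin assembly and maintenance (Chaf1a, Chaf1b and Uhrf1, from -0.26 to 0.01) or fork protection (Timeless, Tipin and Clspn, from -0.16 to 0.04). In Chaf1a 48.2% of windows are shared with other genes.

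The 2 hairpins differed from each other in 3 of the 56 genes (5.36%, against 14.7% of all genes tested, 7.72% higher and 6.94% lower). Ccne2 was higher in shRNF185.3 than in shRNF185.1 cells, by 0.75 on the log2 scale (SE 0.14, adjusted p = 0.00105), with all 6 libraries above all 6. Cdc45 was lower with shRNF185.3 by the same test (log2 fold change -0.41, SE 0.09, adjusted p = 0.00294) with overlapping ranges, a call lost without batch 2 (adjusted p = 0.0771). E2f2 was also lower (-0.41), with all 6 libraries below all 6. The backgrounds for complete separation were 4.58% of genes above and 3.66% below. Rnf185 itself did not differ between the hairpins by this test (log2 fold change -0.00, adjusted p = 0.997). Gmnn, Orc2 and Rfc4, the other genes called with both hairpins, had differences between hairpins of 0.15, -0.06 and 0.02. The 53 genes not called had interval bounds between -0.69 (Dna2) and 0.41 (Pold2). The count lower was 4 without shRNF185.1 replicate 1 or 5 and 1 without batch 2, and the count higher was 2 without control replicate 5, when Orc5 joined Ccne2. Calls in either direction were 8.93% of the 56 without shRNF185.1 replicate 1 or 5, against 13% and 14% of all genes. They were 3.57% without batch 2, against 8.42%, and 7.14% without control replicate 5, against 15.9%.

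The median difference of the 56 genes from control varied between batches, and with shRNF185.1 its sign varied too. With shRNF185.1 the median within-batch difference from control in log2 CPM was -0.13 in batch 1 (49 of 56 genes below 0), 0.23 in batch 2 (12 below 0) and -0.29 in batch 3 (all 56 below 0). With shRNF185.3 it was -0.09 (43 below 0), -0.00 (30 below 0) and -0.32 (55 below 0). Over all genes tested the medians were between -0.01 and 0.00 in each batch and hairpin. The numbers of genes with 1 sign in all 3 batches were 12 with shRNF185.1 (21.4%, against 39.8% of all genes) and 28 with shRNF185.3 (50%, against 47.5%). The mitosis genes, 20 genes taken as a further cell-cycle list, had medians of -0.09, 0.09 and -0.33 with shRNF185.1 and of 0.07, 0.03 and -0.26 with shRNF185.3. Each batch holds 2 libraries a group, and both hairpins share its control libraries.

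In genes whose hairpin libraries all lay below control, that arrangement fixed the sign within each batch, so only the sizes are informative. Ccne2 differed from control by -1.05, -0.91 and -1.68 with shRNF185.1, E2f2 by -0.48, -0.44 and -0.74 with shRNF185.3, and Cdc45 by -0.42, -0.51 and -0.53 with shRNF185.3. A test of whether a gene's difference from control depends on batch, chosen after the within-batch values were seen, called 5 of the 56 with shRNF185.1 (8.93%, against 14.3% of all genes) and 1 with shRNF185.3 (1.79%, against 5.18%). They were Mcm2, Orc1, Orc2, Pola1 and Dna2 with shRNF185.1 and Orc2 with shRNF185.3. Dna2, for example, was at -0.26, 0.70 and -0.47 with shRNF185.1. At an unadjusted p under 0.05 the counts were 27 with shRNF185.1 (48.2%, against 30.9% of all genes) and 9 with shRNF185.3 (16.1%, against 20.9%). The adjusted counts moved widely with the setting: leaving out 1 library gave 0 to 21 with shRNF185.1 and 0 to 2 with shRNF185.3. The matching shares of all genes were not computed.

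**Figure D4:**
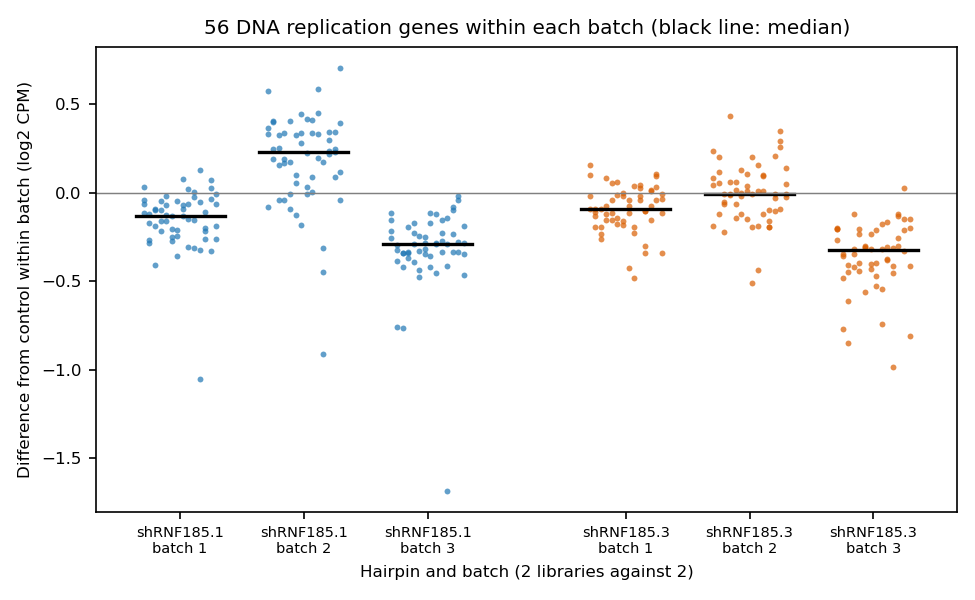
Difference from control within each batch for each of the 56 genes (points, log2 CPM; 2 libraries against 2) with the median as a black line. With shRNF185.1 the median is -0.13, 0.23 and -0.29 in batches 1, 2 and 3, and with shRNF185.3 it is -0.09, -0.00 and -0.32.

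The replication genes also varied together between the libraries of 1 group and batch. In each of the 9 pairs formed by a group and a batch, the library with the even replicate number had the higher mean of the 56 genes. This was seen in the values first, and the labels do not say what odd or even numbers mark. The mean difference between even and odd libraries ran from 0.03 log2 CPM (shRNF185.3, batch 2, with 28 of 56 genes higher in the even library) to 0.35 (shRNF185.1, batch 3, with all 56 higher). Over the 9 pairs, 22 of the 56 genes (39.3%) were higher in the even library every time, against 4.88% of all genes tested, and 37 (66.1%) in 8 or 9 pairs, against 12.3%. The median difference per gene was 0.19, against -0.00 over all genes.

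The differences were spread over nearly all roles. Ccne1 (0.38) and Tk1, thymidine kinase (0.36), had the largest mean differences, and 54 of the 56 genes were above 0. The 2 exceptions were Orc4 and E2f2, at -0.06 each. By role the median was 0.08 for origin recognition and 0.16 to 0.23 for the other groups. Of the 20 mitosis genes, 5 were higher in the even library in all 9 pairs, with a median of 0.12. The even library had the larger total count in 6 of the 9 pairs, and the part of depth in the difference was not tested.

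The size of this variation stood beside that of the hairpin differences. The mean log2 CPM of the 56 genes, set to 0 at the control mean, ran from -0.20 to 0.21 over control libraries (SD 0.15), from -0.35 to 0.09 with shRNF185.1 (mean -0.10) and from -0.33 to -0.01 with shRNF185.3 (mean -0.15). All 3 ranges overlapped. With the odd or even number as a covariate, an alternative added after the values were seen, more of the 56 genes were called lower. They numbered 9 with shRNF185.1 (16.1%) and 18 with shRNF185.3 (32.1%), none higher. Over all genes, 33.1% and 32% were called in either direction, and 49.6% and 49.1% of those calls were higher.

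**Figure D5:**
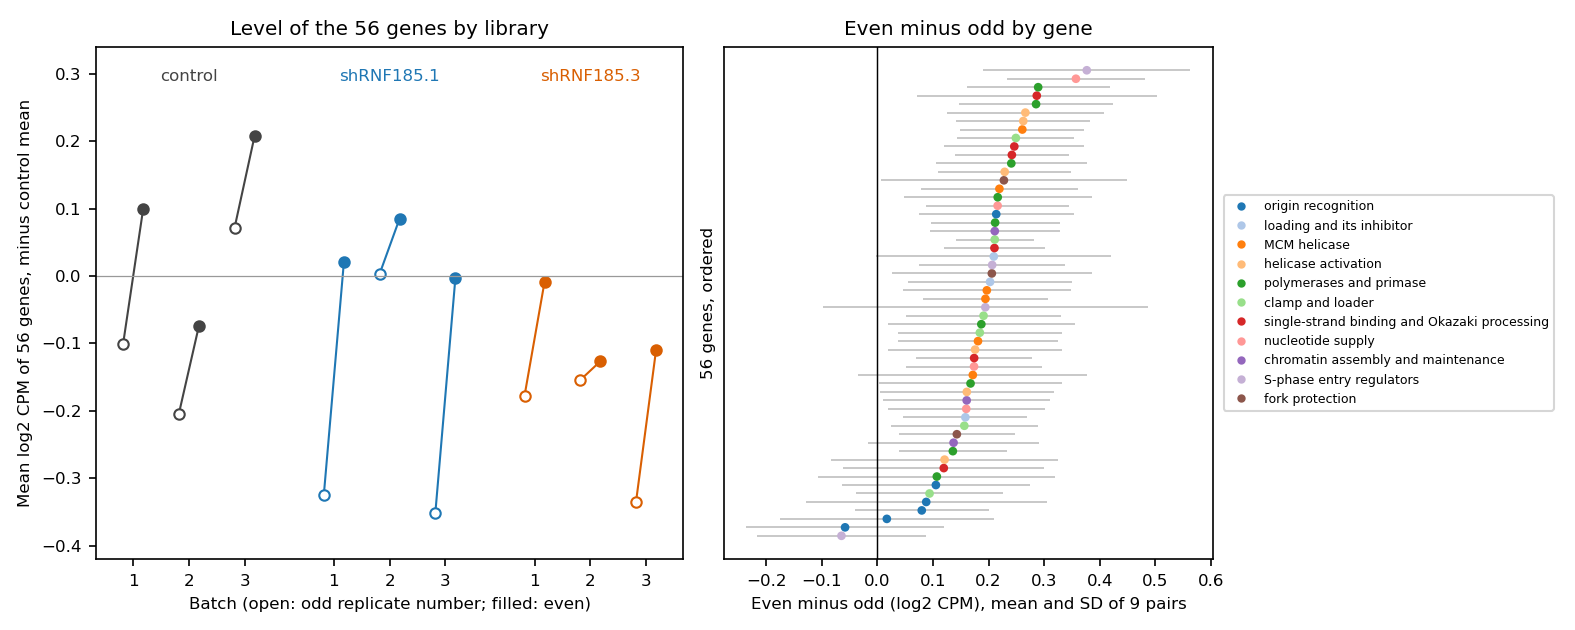
Left, mean log2 CPM of the 56 genes in each library minus the control mean, with the odd (open) and even (filled) library of each group and batch joined. Right, mean and SD over the 9 pairs of the even minus odd difference for each gene, coloured by role. The even library is higher in all 9 pairs, and 54 of the 56 genes have a mean above 0.

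Other genes of the same processes were described by the same test, in lists chosen with earlier results of these data known. Of 51 further replication genes (other polymerase subunits, the origin-firing kinase, checkpoint and nucleotide genes), 11 were called lower and none higher with shRNF185.1 (median -0.12), and 14 lower and 1 higher with shRNF185.3 (median -0.20), with 7 called lower with both. Those called lower were 21.6% with shRNF185.1, against 14.3% of all genes tested, and 27.5% with shRNF185.3, against 13.1%. Calls in either direction made up 21.6% and 29.4% of the list, against 28.9% and 27.3% of all genes. The largest among those called with both were Ccna2, cyclin A2, and Hells, a chromatin remodeler. Ccna2 fell from 330.1 ± 30.5 CPM in control to 200.1 ± 20.1 with shRNF185.1 and 284.9 ± 19.5 with shRNF185.3 (mean ± SD, n = 6). Its log2 fold changes were -0.72 (adjusted p = 5.26e-07) and -0.21 (adjusted p = 0.0352), and the hairpins differed by 0.51 (adjusted p = 5.92e-05). Hells fell by 0.38 and 0.35 on the log2 scale.

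Among the 20 mitosis genes, shRNF185.1 gave 1 call higher and 4 lower, and shRNF185.3 gave 1 higher and 3 lower, which is 25% and 20% of them called against 28.9% and 27.3% of all genes. Ccnb1, cyclin B1, was lower with both (-0.24 and -0.19) and the spindle checkpoint kinase Ttk was higher with both (0.34 and 0.31). Among 17 CDK inhibitors, G1 cyclins and their partners, shRNF185.1 gave 2 calls higher and 1 lower, and shRNF185.3 gave 2 lower (17.6% and 11.8% called, against the same background). Ccnd1, cyclin D1, was the gene called with both, at -0.37 and -0.32.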

How the data were processed

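RNA-seq libraries (poly(A) selection, a directional kit, single-end reads of 75 bases, per the labels' protocols) of 18 samples were used, 6 in each of 3 groups. The submitters' processing notes name cutadapt 2.3, STAR 2.7.0d, RSEM 1.3.1 and mm10, without a role or order, and the labels name ComBat-Seq, a batch adjustment for counts; whether it was given the groups, and whether counting used strand, is not given in the sources used here. The deposited counts were treated by the rules for expected counts, since 0.466% (3998 values) are not whole, and were rounded. The deposited CPM are a scaled signal: the authors' counts divided by an effective library size, for 15386 genes.

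Counts were tested in R 4.3.3 with edgeR 4.0.16: genes kept by filterByExpr (minimum count 10, 14309 genes), TMM scaling, a mean per group over all 18 libraries with no covariate, quasi-likelihood F test, Benjamini-Hochberg adjustment over the genes tested, and calls at an adjusted p under 0.05. Standard errors were derived from the F statistic. Within-batch and library values are log2 CPM with a prior count of 2. Alternatives used DESeq2 1.42.0, limma 3.58.1 (voom), other scalings, filters, covariates, blocks and left-out libraries or batches.

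The 56 genes and the lists were chosen with earlier results of these data known. Full values are given in each role for the gene with the largest absolute log2 fold change among those called in a comparison; other genes have their log2 fold change, or its range. From the other lists, the 2 genes with the largest changes among those called with both hairpins may be named. Exonic lengths and overlaps are from GENCODE M21 on GRCm38. Shared windows are the 75-base stretches of a gene's transcripts that also occur, on either strand, in transcripts of another gene.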

Additional observations from a re-analysis of the deposited data

Results flagged for a closer look

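Between the hairpins, 3 of the 56 genes differed by edgeR's test: Ccne2 was higher with shRNF185.3 than with shRNF185.1 (log2 fold change 0.75), and Cdc45 (-0.41) and E2f2 (-0.41) were lower.

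The difference from control depended on the batch, by an interaction term in edgeR chosen after the within-batch values were seen, for Orc2 with each hairpin (adjusted p = 0.0104 with shRNF185.1 and 0.0383 with shRNF185.3). With shRNF185.1 it also did so for Orc1 (adjusted p = 0.02), Pola1 (0.0338), Dna2 (0.0348) and Mcm2 (0.0365). In all 5 genes the difference with shRNF185.1 was above 0 in batch 2 and below 0 in batches 1 and 3. These signs were not particular to the 5 genes. Of all 56, 49 were below 0 in batch 1, 44 above 0 in batch 2 and 56 below 0 in batch 3.

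For Gmnn, shRNF185.3 replicate 5 stood at 35.4 CPM, apart from the next library at 42.7. It was 1 of 36 groups of 6 examined for a library far from the rest, of which chance gives about 1.8.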

How the results depend on the processing

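The count of the 56 genes called higher against control stayed at 0 under every setting run. Over the 17 gene-level calls, 519 of 578 repeats kept the call, 59 fell short of the threshold and 0 changed sign. In each comparison, 6 of the 34 alternatives left out a library of the group not compared. They leave the compared libraries as they were, so a kept call there says little. Kept throughout were Ccne2 with shRNF185.1 and between hairpins, Cdc45 and E2f2 with shRNF185.3, E2f2 between hairpins and Gmnn with shRNF185.1. The cause was not tested for any change below.

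Genes of the 56 called lower were 5, 9 and 2 (shRNF185.1, shRNF185.3, between hairpins). Shares in this paragraph are calls in either direction, of the 56 and then of all genes tested. In the main setting they were 8.93% against 28.9%, 16.1% against 27.3% and 5.36% against 14.7%. With odd or even number as a covariate the genes lower were 9, 18 and 5 (16.1% against 33.1%, 32.1% against 32% and 10.7% against 18.9%). Without batch 1 the genes lower were 2 with shRNF185.1 (3.57% against 15.5%) and 3 with shRNF185.3 (5.36% against 14.9%). Without batch 3 they were 2 (3.57% against 20.3%) and 2 (3.57% against 17.4%). Without batch 2 they were 13 with shRNF185.1 (23.2% against 35.7%) and 1 between hairpins (3.57% against 8.42%). A GC and length offset gave 16 with shRNF185.3 (28.6% against 34.1%). Summing the libraries of a group and batch gave 4 between hairpins (8.93% against 11.7%). Leaving out 1 library gave 4 to 7, 6 to 15 and 2 to 4 lower, and 1 to 2 higher between hairpins. In those fits the shares of the 56 were 7.14% to 12.5%, 10.7% to 26.8% and 5.36% to 8.93%. Of all genes they were 25.5% to 29.4%, 23% to 27.8% and 11.8% to 15.9%. All genes called fell to 2207, 2120 and 753 without batch 1, to 2501 with shRNF185.3 without batch 3, and to 1208 between hairpins without batch 2. E2F letters stood in 21.7% of promoters in the 250 bases before the start alone.

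The replicate numbers did not pair the libraries: same-numbered libraries of different groups had deviations correlated at -0.0144 on average over 18 pairs (-0.628 to 0.705), and 2 of 18 libraries correlated best with their own number, while the mean was 0.264 between groups for other numbers of the same parity (both odd or both even) and -0.173 for numbers of different parity. With the replicate number as a block, genes lower were 5, 13 and 5 (shRNF185.1, shRNF185.3, between hairpins). Calls in either direction, of the replication genes and then of all genes, were 8.93% against 26.6%, 23.2% against 25% and 10.7% against 13.8%. With the block plus the GC and length offset, genes lower were 17 with shRNF185.3 (30.4% against 31.6%) and 5 between hairpins (10.7% against 17.4%).

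Genes of the 56 whose difference depended on batch numbered 5 with shRNF185.1 (8.93%, against 14.3% of all genes) and 1 with shRNF185.3 (1.79%, against 5.18%). They were 27 and 10 without a filter, 37 and 18 with the replicate block, 12 and 0 with the GC and length offset, 36 and 10 with the odd or even covariate, and 2 with shRNF185.3 under library size alone. Leaving out 1 library gave 0 to 21 and 0 to 2. For these alternatives the share over all genes was not computed, so the counts cannot be set against it.

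The share of calls that were higher was 51.8% with shRNF185.3 and 52.7% between hairpins, and 36.8% and 42.6% with the GC and length offset.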
